A study of Saccharomyces cerevisiae with 6 samples.

Results

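The 9 genes described here encode the 4 subunits of ribonucleotide reductase in budding yeast (RNR1, RNR2, RNR3 and RNR4) and 5 proteins of its control (SML1, RFX1, RAD53, DUN1 and HUG1). They were chosen by gene name from the platform annotation, and each matched 1 probe. These are 9 of the 6026 distinct features that held a value in any scan. A value on all 3 arrays was present for 8 of them, which were tested among 5693 features. HUG1 had a value in 1 scan of 1 array and was not tested.

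The arrays compared mRNA of strain S288C cultures given paraquat (methyl viologen) at 35 ppm for 2 h during exponential growth in YPD at 25 °C with mRNA of cultures left untreated for the same time. Paraquat is a redox cycler whose reduced form hands electrons to oxygen, a source of superoxide in the cell. Treated cDNA carried Cy5 and untreated cDNA Cy3 on all 3 arrays, which held independent biological samples, so the effect of treatment and that of the dye cannot be told apart. A high power and a low power laser scan exist for every array, and the values of a probe from both were averaged to give 1 value per array. The deposited log ratios were read as log2 of paraquat over untreated. Neither the base nor the direction is given by any source, though the channel order of the labels makes this direction likely, and every sign here would turn if it ran the other way.

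Ribonucleotide reductase turns ribonucleotides into the deoxyribonucleotides needed for DNA synthesis and repair. In budding yeast a large subunit, mostly Rnr1, holds the catalytic and allosteric sites, and a small subunit made of Rnr2 and Rnr4 carries an iron cofactor with a tyrosyl radical. The checkpoint kinases Mec1, Rad53 and Dun1 act on the enzyme after DNA damage or blocked replication: they lead to removal of the inhibitor Sml1 and release the repressor Rfx1 (also called Crt1) from the promoters of RNR2, RNR3, RNR4 and HUG1.

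None of the 8 measured genes changed past the threshold after paraquat. Of their means, 3 lay above 0 (RNR1, SML1 and RFX1) and 5 below (RNR2, RNR3, RNR4, RAD53 and DUN1). RNR1 lay above 0 on every array, and both small subunit genes lay below 0 on every array. RNR3, the gene of the damage-inducible large subunit, and the regulators had signs that differed between arrays. In the limma fit 0 of the 8 passed an adjusted p of 0.05, with a smallest adjusted p of 0.47, where 0.0351% of all tested features passed. At an unadjusted p under 0.05 the count was also 0 of 8, against 10.8% of all tested features. The median of the 8 means was -0.14 on the log2 scale, and that of all tested features was -0.0065.

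**Figure D1:**
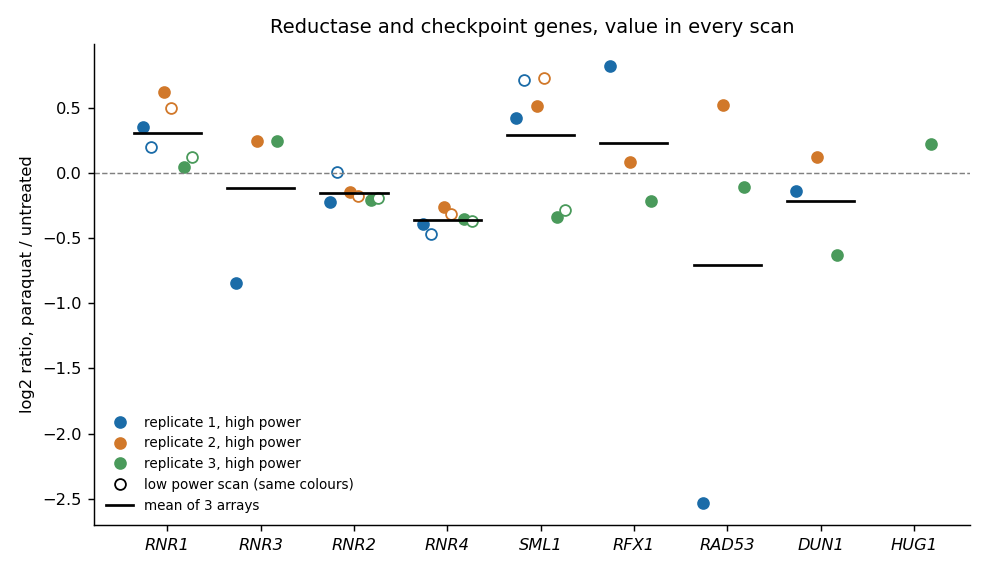
Log2 ratio of paraquat over untreated (vertical axis) for the 9 genes in every scan that gave a value; filled points are high power scans, open points low power scans, colours are the 3 replicates and bars the mean of 3 arrays. RNR4 and RNR2 hold the tightest sets of points, and RAD53 runs between -2.53 on replicate 1 and 0.52 on replicate 2.

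The main large subunit gene, RNR1 (YER070W), had log2 ratios of 0.28, 0.56 and 0.084 on replicates 1, 2 and 3. All 3 arrays were above 0, with replicate 2 the highest, and 16% of all tested features were above 0 on all 3 arrays. The mean was 0.31 ± 0.24 (SD, n = 3 arrays), a ratio of 1.24, with a 95% interval of -0.11 to 0.72 and a limma adjusted p of 0.619. Without replicate 2 the mean was 0.18. On replicate 2 RNR1 ranked 354 from the top of 5693 features, and on replicate 3 it ranked 2164.

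RNR3 (YIL066C), which encodes a second large subunit that is scarce in unstressed cells and strongly induced by DNA damage, had log2 ratios of -0.84, 0.25 and 0.25 on replicates 1, 2 and 3. Replicates 2 and 3 gave nearly the same small positive value, and replicate 1 stood apart from both. The mean was -0.12 ± 0.63 (SD, n = 3 arrays), with a 95% interval of -0.58 to 0.35 and a limma adjusted p of 0.905. Without replicate 1 the mean turned to 0.25. All values of RNR3 came from high power scans.

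The small subunit gene RNR4 (YGR180C) encodes the partner that helps Rnr2 fold and take up its iron. It had log2 ratios of -0.43, -0.29 and -0.36 on replicates 1, 2 and 3, and all 6 scans lay between -0.47 and -0.26. The 3 arrays agreed closely, with a standard deviation that ranked 220 from the smallest of all 5693 features. The mean was -0.36 ± 0.073 (SD, n = 3 arrays), a ratio of 0.779, with a 95% interval of -0.77 to 0.044 and a limma adjusted p of 0.527. The interval uses a variance shrunk towards that of all features, and so is wider than the spread of the 3 RNR4 values alone. An ordinary t test without that shrinkage gave a Benjamini-Hochberg adjusted p of 0.741. RNR2 had the same value there after adjustment, so it does not show that the evidence for RNR4 itself was weaker. RNR4 ranked 464 from the bottom of 5693 features by mean.

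RNR2 (YJL026W), whose product binds the iron centre and forms the tyrosyl radical, had log2 ratios of -0.11, -0.16 and -0.20 on replicates 1, 2 and 3. All 3 arrays lay below 0, as they did for RNR4 and for 16% of all tested features, but close to it. The mean was -0.16 ± 0.047 (SD, n = 3 arrays), a ratio of 0.898, with a 95% interval of -0.56 to 0.25 and a limma adjusted p of 0.834. The high and low power scans of replicate 1 gave -0.22 and 0.0097, a gap of 0.23 within 1 array. That gap exceeded the 0.094 between the highest and the lowest of the 3 arrays. The scans of the other arrays lay closer, at -0.15 and -0.18 on replicate 2 and -0.21 and -0.19 on replicate 3.

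Within arrays, the ratio of RNR1 was above those of both small subunit genes. RNR1 minus RNR4 was 0.71, 0.84 and 0.45 on replicates 1, 2 and 3, with a mean of 0.67 ± 0.20 (SD, n = 3 arrays). RNR1 minus RNR2 was 0.38, 0.72 and 0.28, with a mean of 0.46 ± 0.23 (SD, n = 3 arrays). RNR2 minus RNR4 was 0.33, 0.13 and 0.16, with a mean of 0.21 ± 0.11 (SD, n = 3 arrays). Each of these 3 differences had one sign on all arrays, and an exact two-sided sign permutation test gave p = 0.25, the smallest that 3 arrays allow, and 0.5 after Benjamini-Hochberg adjustment over the 6 subunit pairs. The 3 pairs with RNR3 had mixed signs, with an exact permutation p of 0.5 or 1, and RNR1 minus RNR3 ran between -0.16 on replicate 3 and 1.12 on replicate 1. This test could not pass 0.05 for any pair, whatever the values, and so does not show that the subunit genes responded alike.

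**Figure D2:**
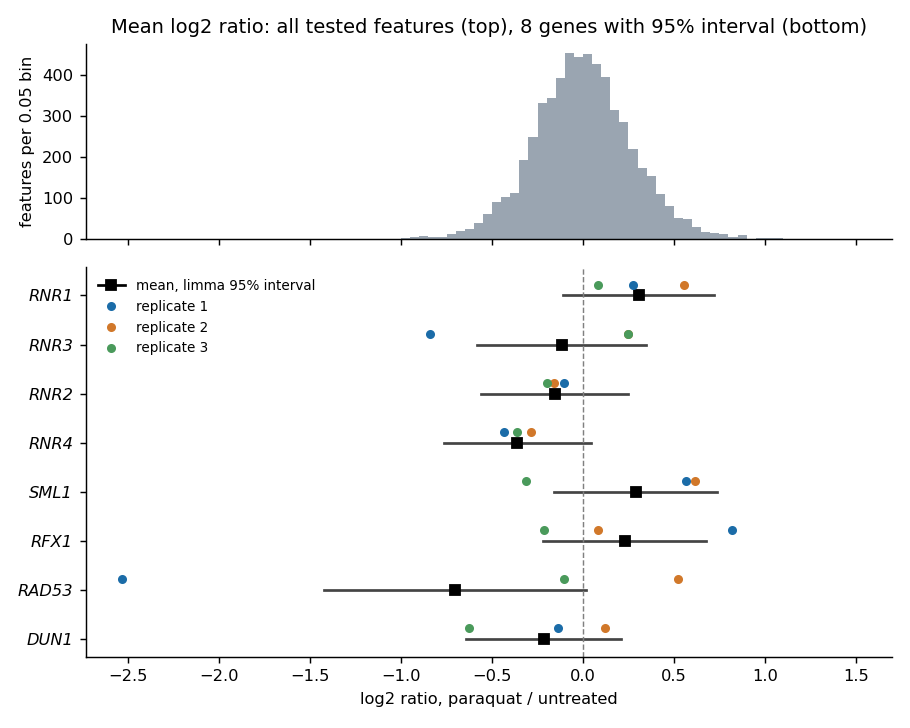
Top, number of the 5693 tested features per bin of 0.05 in mean log2 ratio; bottom, the mean of 3 arrays (square) with its limma 95% interval (line) and the value of each array (coloured points) for the 8 measured genes, on the same horizontal axis. Each of the 8 intervals spans 0, and RNR1 and RNR4 lie on opposite sides of it with means of 0.31 and -0.36.

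SML1 (YML058W) encodes the small protein that binds the large subunit and holds the enzyme inactive. Its log2 ratios were 0.56, 0.62 and -0.31 on replicates 1, 2 and 3. Replicates 1 and 2 lay high, with SML1 at rank 262 from the top on replicate 2, while replicate 3 lay on the other side of 0, and both scans of each array gave the same sign. The mean was 0.29 ± 0.52 (SD, n = 3 arrays), with a 95% interval of -0.16 to 0.74 and a limma adjusted p of 0.678. The mean was 0.59 without replicate 3, 0.13 without replicate 2 and 0.15 without replicate 1.

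RFX1 (YLR176C), the DNA-binding repressor of the damage-inducible reductase genes, is itself one of the genes it represses. It had log2 ratios of 0.82, 0.083 and -0.22 on replicates 1, 2 and 3. The first array carried the positive mean of 0.23 ± 0.53 (SD, n = 3 arrays), with a 95% interval of -0.22 to 0.68 and a limma adjusted p of 0.762. Without replicate 1 the mean was -0.067. On replicate 1 RFX1 ranked 222 from the top, while its targets RNR3, RNR4 and RNR2 ranked 204, 932 and 2331 from the bottom. On replicate 2 RFX1 and RNR3 ranked 2490 and 1495 from the top, and RNR4 and RNR2 1107 and 1712 from the bottom. On replicate 3 RNR3 ranked 1299 from the top, while RFX1, RNR4 and RNR2 ranked 1582, 893 and 1671 from the bottom. A relation of RFX1 to these genes was not tested.

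RAD53 (YPL153C), the central effector kinase of the DNA damage and replication checkpoints, had the lowest mean of the 8 and rested on 1 array. Its log2 ratios were -2.53, 0.52 and -0.11 on replicates 1, 2 and 3. The value on replicate 1 was the second lowest of all 5693 features on that array, and the standard deviation was the second largest of all tested features. The mean was -0.70 ± 1.61 (SD, n = 3 arrays), with a 95% interval of -1.42 to 0.015 and a limma adjusted p of 0.47. The interval uses the shrunk variance, and so is narrower than the spread of the 3 RAD53 values alone would give. Without replicate 1 the mean was 0.21, and without replicate 2 it was -1.32 with a limma adjusted p of 0.000644. That p rests on 2 arrays, at -2.53 and -0.11, and on the same shrinkage. With all 3 arrays the limma adjusted p was 0.839 with robust variance. An ordinary t test without shrinkage gave an adjusted p of 0.876. Only the high power scans gave a value, so no second scan of replicate 1 was there to set beside the -2.53.

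DUN1 (YDL101C), the kinase that acts below Rad53 on Sml1 and Rfx1, had log2 ratios of -0.14, 0.12 and -0.63 on replicates 1, 2 and 3. The arrays lay on both sides of 0, with replicate 3 the lowest, at rank 213 from the bottom. The mean was -0.22 ± 0.38 (SD, n = 3 arrays), with a 95% interval of -0.64 to 0.21 and a limma adjusted p of 0.763. Without replicate 3 the mean was -0.0091. DUN1 and RAD53 were both below 0 on replicates 1 and 3 and above 0 on replicate 2, with their lowest values on different arrays.

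HUG1 (YML058W-A), a small protein gene that is strongly induced through the checkpoint and lies next to SML1 on chromosome XIII, had 1 value, a log2 ratio of 0.22 in the high power scan of replicate 3. SML1 was at -0.31 on that array. Among all distinct features, 60 had a value on a single array. No fold or test can be given for HUG1.

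The genes fell into those seen in both scans and those seen in high power scans alone. RNR1, RNR2, RNR4 and SML1 had values in all 6 scans, as did 1794 features in all. RNR3, RAD53, DUN1 and RFX1 had no low power value on any array, as was the case for 27.5% of the tested features. The 4 genes with single scans had SDs between 0.38 and 1.61, and the 4 genes with both scans had SDs between 0.047 and 0.52. Over all tested features the median SD was 0.31 without any low power value and 0.30 with one on all 3 arrays. The gap between both scans of an array was at most 0.29 for the 4 genes (SML1, replicate 1), where the median gap over all features was 0.20, 0.14 and 0.14 on replicates 1, 2 and 3.

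Array by array, the medians of the 8 genes were -0.12, 0.18 and -0.21 on replicates 1, 2 and 3, while those of all tested features were 0.0053, 0.025 and -0.016. The replicates themselves agreed weakly, with correlations across the 5693 features, which are not independent replicates, of 0.16 for replicates 1 and 2, 0.22 for replicates 1 and 3 and 0.025 for replicates 2 and 3. The limma fit called 2 features in all. The number of arrays limits the precision, and the median standard error was 0.21 on the log2 scale over the 8 genes and 0.20 over all tested features.

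Profiles were compared by Euclidean distance over the 3 array values, as a description. Nearest to RNR4 among 5217 other named features were PPA2 (distance 0.076), ENT3 (0.079) and GDB1 (0.084). Nearest to RNR2 were MEP1 (0.030), RBH2 (0.035) and RGT2 (0.061). PAU5 (0.054), ERG8 (0.068) and YFL065C (0.071) lay nearest to RNR1, and GDH2 (0.059), RIM8 (0.063) and PTA1 (0.066) nearest to RNR3. No other gene of the reductase group was among these. RNR2 was the 504th nearest of 5692 features to RNR4, at a distance of 0.39, and RNR4 was the 1045th nearest to RNR2, so that many features lay nearer to each of these genes than its partner did.

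The wider pathway was read through 7 lists of 98 genes, of which 87 were measured on all 3 arrays. Over all 87, 39 means lay above 0 and 48 below, 0 passed the adjusted threshold (smallest limma adjusted p of 0.112), and 11.5% passed an unadjusted p under 0.05. That share lay near the 10.8% of all tested features. The electron donor list, of thioredoxins, glutaredoxins, thioredoxin reductase and glutathione reductase, lay farthest from 0, with a median of 0.59 over 6 genes.

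**Figure D3:**
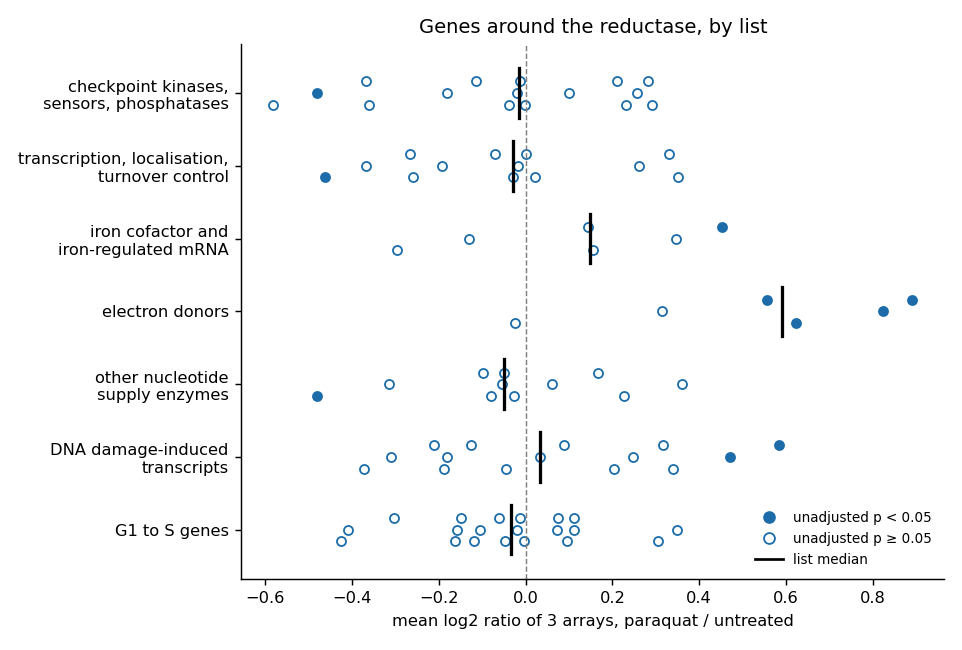
Mean log2 ratio of 3 arrays (horizontal axis) of each measured gene in the 7 lists; filled points have an unadjusted limma p under 0.05 and vertical bars are list medians. The electron donors have a median of 0.59, and the medians of the other 6 lists lie between -0.05 and 0.15.

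The reductase is turned over by dithiols: after each cycle its active site cysteines are reduced by thioredoxin, which thioredoxin reductase recharges, or by glutaredoxin, which draws on glutathione. Of the 6 electron donor genes 5 had a mean above 0, 4 had a mean above 0 with an unadjusted p under 0.05, as had 312 of all 5693 tested features, and 0 passed the adjusted threshold. TRX2, a cytosolic thioredoxin, had log2 ratios of 1.13, 0.40 and 1.15 on replicates 1, 2 and 3, with a mean of 0.89 ± 0.43 (SD, n = 3 arrays) and a limma adjusted p of 0.112. GRX2, a glutaredoxin, ran likewise at 1.11, 0.38 and 0.98, with a limma adjusted p of 0.142. Both were high on replicates 1 and 3 and lower, but above 0, on replicate 2.

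TRX1, the other cytosolic thioredoxin, was at 0.65, 0.35 and 0.68 (limma adjusted p of 0.295), and the thioredoxin reductase TRR1 was at 0.40, 0.82 and 0.65 (limma adjusted p of 0.269). The TRR1 mean was 0.62, and 0.32 after removal of an additive trend in the digits of the probe number, taken as a proxy for array position. GRX1 had a mean of 0.31 and the glutathione reductase GLR1 one of -0.025, both with arrays on either side of 0. The adjusted threshold was passed by TRX2 on low power scans alone, on named features alone and without replicate 2. GRX2 passed it on features with all 6 scans and without replicate 2. Neither passed in its other alternatives. After trend removal TRX2 and GRX2 had means of 0.74 and 0.65, with limma adjusted p of 0.333 and 0.399. Without replicate 1 their limma adjusted p was 0.826 and 0.835. TRX1 and TRX2 are close paralogs that may share signal, and probe sequences were not used here.

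Checkpoint genes upstream of Rad53 and the phosphatases that act against it gave 16 measured genes, 6 above 0 and 10 below, with a median of -0.016. PTC3, a phosphatase that acts on Rad53, was at -1.15, -0.26 and -0.038 on replicates 1, 2 and 3 (limma adjusted p of 0.441), and was the 1 gene of this list with an unadjusted p under 0.05. PSY2, a subunit of the Pph3 phosphatase, was at -1.04, -0.15 and 0.099, while PPH3 itself was above 0 on all arrays, at 0.11, 0.35 and 0.24. PTC3 and PSY2, like RAD53, had their lowest value on replicate 1. This was not particular to them, since several other genes of the list, CHK1 among them, were also lowest there. The kinase gene CHK1 was at -0.74, -0.25 and -0.11, with all arrays below 0. DDC1, a subunit of the checkpoint clamp, was at -0.13, -1.95 and 0.34, and without replicate 2 its mean of -0.58 turned to 0.11. LCD1, which encodes the partner of Mec1 also known as Ddc2, was above 0 on all arrays with a mean of 0.29.

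Genes that control transcription, location and turnover of the reductase and of Sml1 gave 13 measured genes, 5 above 0 and 8 below, with a median of -0.028. WTM1, which anchors the small subunit in the nucleus, was at -1.07, -0.097 and -0.22 on replicates 1, 2 and 3 (limma adjusted p of 0.452), so that replicate 1 carried most of its mean. WTM2 went the other way and was above 0 on all arrays, at 0.33, 0.26 and 0.20. DIF1, which brings the small subunit into the nucleus and is related to SML1, was above 0 on every array, at 0.45, 0.38 and 0.23, with a mean of 0.35 and a limma adjusted p of 0.545. The ubiquitin pathway genes of Sml1 turnover did not move together: UBR2 was at 0.59, -0.022 and 0.43, RAD6 at -1.13, -0.28 and 0.30, and MUB1 at -0.25, -0.19 and -0.14. The corepressor genes of Rfx1 had means near 0, with TUP1 at 0.0018 and CYC8 at -0.071.

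Iron cofactor delivery and iron-regulated mRNA control gave 6 measured genes, 4 above 0 and 2 below, with a median of 0.15. DRE2 and TAH18 encode partners of an electron chain that helps to form the iron cofactor of Rnr2. DRE2 was at -0.57, -0.25 and -0.072 on replicates 1, 2 and 3, all below 0, while TAH18 was at 0.61, -0.099 and 0.53. AFT2, an iron-sensing activator, was at 0.83, 0.53 and -0.0026 (limma adjusted p of 0.441) and was the 1 gene of this list with an unadjusted p under 0.05. Its mean was 0.45, with 0.22 on high power scans alone and 0.69 on low power scans alone. The monothiol glutaredoxin genes GRX3 and GRX4, which bind iron-sulfur clusters, had means of 0.15 and -0.13, with arrays on both sides of 0. CTH1, which encodes an mRNA-binding protein of iron shortage, had a mean of 0.14, and its paralog TIS11 (CTH2) had no value on all 3 arrays.

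Other enzymes of nucleotide supply gave 11 measured genes, 4 above 0 and 7 below, with a median of -0.049. URA6, the uridylate kinase gene, was below 0 on all arrays at -0.50, -0.76 and -0.18 (limma adjusted p of 0.397). DUT1, whose dUTPase keeps uracil out of DNA, was at 0.49, -0.054 and 0.65, and CDC8, the thymidylate kinase gene, at 0.21, -0.094 and 0.57. ADK1, the adenylate kinase gene, had a mean of -0.31. No gene of this list was above 0 on all 3 arrays.

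Transcripts known to be induced by DNA damage gave 15 measured genes, 8 above 0 and 7 below, with a median of 0.034. DDR48 was above 0 on every array at 0.74, 0.66 and 0.36 on replicates 1, 2 and 3, with a mean of 0.58 and a limma adjusted p of 0.295. MMS2, which encodes a ubiquitin-conjugating factor of damage tolerance, had values of 0.41, 0.57 and 0.44 and a limma adjusted p of 0.395. PHR1, the photolyase gene, was at 0.54, 0.33 and 0.081 and DDI2 at 0.13, 0.45 and 0.17. RAD7, a nucleotide excision repair gene, was below 0 on all arrays with a mean of -0.37, or -0.063 after removal of the probe number trend. In all, 4 of the 15 were above 0 on all 3 arrays, against 16% of all tested features, and RNR3 and the other 11 genes of the list were not.

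The G1 to S genes of the MBF class, to which RNR1 belongs by its control at the start of S phase, gave 20 measured genes, 7 above 0 and 13 below, with a median of -0.034. Of the 20 genes 0 had an unadjusted p under 0.05, where 10.8% of all tested features had. CDC45, which encodes part of the replicative helicase, was at -0.75, 0.026 and -0.55 on replicates 1, 2 and 3, and PDS1, the securin gene, at -0.63, 0.37 and -0.97. The replication protein A genes RFA2 and RFA3 had means of -0.30 and 0.35. POL30, the gene of the sliding clamp of DNA polymerase, was at 0.32, 0.73 and -0.14, with its highest value on replicate 2 like RNR1. Several other genes of the list, CDC45 and PDS1 among them, were also highest there. The means of the list over its genes were -0.068, 0.061 and -0.12 on replicates 1, 2 and 3, where RNR1 was at 0.28, 0.56 and 0.084.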

How the data were processed

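Per the labels' descriptions, the authors normalized flag 0 spots by LOWESS; the deposited log2 values (base taken, not stated) are per scan, and the merged average the descriptions mention was not used here. Background correction is not given in the sources used here. Of 6912 probes, 5513 had 1 gene symbol and 5508 were updated by gene ID through the RefSeq table of assembly R64, used for names and neighbours only. Probes with identical values in every scan (9 decimals) were joined, and 761 without values left out. The high and low power values of an array were averaged. In R 4.3.3, limma 3.58.1 (lmFit and eBayes, two-sided, 2 residual and 19.1 prior degrees of freedom) tested the mean of 3 arrays against 0 over 5693 features with a value on every array, adjusted by Benjamini-Hochberg at a threshold of 0.05. The code was tested on simulated data. Genes named were the 9 members, the 4 list genes with the smallest p and the 3 nearest profiles per subunit. MUB1, TUP1, CYC8, LCD1, CTH1, GRX4, GRX1, GLR1, DDI2, POL30, TIS11, PPH3 and WTM2 were added after their values were seen. Members and lists were chosen with earlier results of these data known. In all, 14 alternatives were run, covering scans, centring, scaling, filters, variance, removal of an additive trend in the probe number's digits, named features alone and leaving out each array.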

Additional observations from a re-analysis of the deposited data

How the results depend on the processing

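The count of 0 called genes among the 8 held in 13 of 14 alternatives. On low power scans alone and on features with all 6 scans it covered RNR1, RNR2, RNR4 and SML1 only. Leaving out each array gave between 0 and 1 of the 8 called, RAD53 without replicate 2. The median of their means was 0.076 on low power scans alone, where only RNR1, RNR2, RNR4 and SML1 had values, 0.067 on features with all 6 scans (the same genes) and 0.043 without replicate 1, against -0.14. Leaving out each array turned the sign of RNR3 (-0.30 to 0.25), RAD53 (-1.32 to 0.21), RFX1 (-0.067 to 0.45), DDC1 (-1.04 to 0.11), RAD6 (-0.70 to 0.011) and GRX3 (-0.032 to 0.35). No other alternative turned the sign of any of the 8 genes or the 28 list genes named by rule. The number of list genes called was 1 on low power scans alone, 1 on features with all 6 scans, 1 on named features alone and 0 to 2 on leaving out an array. Over all features, 2 were called, against 0 on high power scans alone, with low power values filling gaps, with arrays centred, centred and scaled or without variance moderation, 1 with the probe number trend removed, 6 with values on at least 2 arrays or robust variance, 14 on named features alone, 18 on low power scans alone, 19 on features with all 6 scans and 0 to 69 on leaving out an array. The probe number trend made up 14.1% (replicate 1), 18.6% (replicate 2) and 9.85% (replicate 3) of the variance. Without it the means of RNR1, RNR3, DIF1, DRE2, PHR1 and PDS1 were among those nearer 0, at 0.21, -0.015, 0.21, -0.14, 0.14 and -0.17. Those of RFX1, UBR2, WTM1, ADK1 and RAD6 were among those farther from 0, at 0.29, 0.40, -0.57, -0.45 and -0.61. The causes were not tested.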
